A study of Mus musculus with 4 samples.

Results

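Type 1 conventional dendritic cells (cDC1) were followed in single-cell RNA libraries of the mouse pancreas after caerulein or saline. They were chosen by their own transcripts, counted as UMIs (unique molecular identifiers, each marking 1 captured mRNA molecule). A barcode was kept with 500 or more UMIs, 200 or more genes and a mitochondrial share of 20% or less. A kept barcode was a cDC1 when it had 5 or more UMIs of the MHC class II gene H2-Aa and 2 or more over Xcr1, Clec9a and Wdfy4, with under 10 over the macrophage complement genes C1qa, C1qb and C1qc and 0 of the B cell gene Cd79a and of the cDC2 gene Cd209a. This gave 187 cDC1 among 12807 kept barcodes. Because these values chose the cells, the levels of the rule's genes and every difference between cDC1 and other cells are given as description only.

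Dendritic cells take up antigen in tissues and show it to T cells. The cDC1 branch depends on the transcription factors IRF8 and BATF3, reads dead cells through CLEC9A, a receptor for their exposed actin, and moves their antigens onto MHC class I for CD8 T cells, a step called cross-presentation that needs WDFY4. Its surface receptor XCR1 binds XCL1, a chemokine made by CD8 T cells and NK cells. Xcr1, Clec9a and Wdfy4 lie, in the GENCODE vM21 annotation of mm10, at chr9:123852315-123862029 on the minus strand (Xcr1), chr6:129408862-129424763 on the plus strand (Clec9a) and chr14:32959547-33185508 on the minus strand (Wdfy4).

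All mice were wild-type C57BL/6, and each group was 1 library of DAPI-negative pancreatic cells. Caerulein, a peptide that acts like cholecystokinin and sets off acute pancreatitis by overdriving the enzyme-secreting acinar cells, was followed by 2 days of recovery in C2D (125 cDC1) and saline by the same 2 days in S2D (28 cDC1). After 6 weeks of recovery there were 25 cDC1 in the caerulein library C6W and 9 in the saline library S6W. The labels used here give no age, sex, dose or number of animals per library. With 1 library per group nothing could be tested against variation between animals, so no p-value is given, and all intervals (95%) cover counting error only.

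The libraries held 29145886 to 71547194 UMIs, and a kept barcode held a median of 14061 UMIs in C2D against 8339 in S2D, 10562 in C6W and 10345.5 in S6W. The cDC1 themselves were deep, with medians of 17056 UMIs in C2D, 19901.5 in S2D, 24231 in C6W and 22026 in S6W. RNA of acinar enzymes differed between the libraries: a cDC1 held a median of 24 UMIs of digestive enzyme genes in C2D, against 176 in S2D, 111 in C6W and 109 in S6W. Libraries shared 3 to 22 cell barcodes pair by pair, and no cDC1 barcode was shared.

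The name was checked against markers that the rule did not use, in cells the rule had already picked. Plbd1, a phospholipase-like lysosomal protein, had a UMI in 181 of 187 cDC1 (96.8%), Irf8 in 162 (86.6%), Naaa, a lysosomal amidase, in 158 (84.5%) and Batf3 in 139 (74.3%). These genes are not private to cDC1: Plbd1 had a UMI in 92.2% of cDC2, and Irf8 in 79.8% of macrophages and 70.4% of B cells. Genes with a narrower range were found in fewer cells. Itgae, the integrin chain CD103, had a UMI in 46.5% of cDC1, against 0.649% of cDC2 and 0.412% of macrophages. Gcsam had one in 50.3% and Snx22 in 38.0% of cDC1, against 0 of 154 cDC2 for each. T cell, NK cell and neutrophil marker genes were at or near 0, with a median of 0 UMIs per 10000 in every library. However, 38 of the 187 cells (20.3%, 14.8 to 26.8%, Clopper-Pearson) had entered through Wdfy4 alone, without a UMI of Xcr1 or Clec9a: 27 of 125 in C2D, 3 of 28 in S2D, 5 of 25 in C6W and 3 of 9 in S6W. Wdfy4 is not a private marker, since 41.9% of C2D macrophages also held a UMI of it, against 0.649% for Xcr1 and 0.417% for Clec9a.

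The cells admitted by Wdfy4 alone looked different. In C2D they held a median of 55.1 UMIs per 10000 over the 25 other genes of a cDC1 core list (12.95 to 299.3), against 289.2 (37.25 to 608.9) in C2D cells with Xcr1 or Clec9a. Their cDC2 markers stood at a median of 18.9 UMIs per 10000, against 3.35. Results below are therefore also given for the 149 cells with Xcr1 or Clec9a where a ratio moved by over 1.5 times or crossed the 2-fold line, a restriction chosen after the data were seen. At the edge of the rule, 22 cDC1 had exactly 2 UMIs over Xcr1, Clec9a and Wdfy4 (18 in C2D, 2 in S2D, 1 in C6W and 1 in S6W), and 17 of these rested on Wdfy4 alone. A further 52 barcodes met every other condition with 1 such UMI (41, 6, 2 and 3 in the same libraries). A single UMI of Cd209a removed 51 barcodes in C2D, 5 in S2D, 15 in C6W and 8 in S6W, of which 7, 1, 2 and 0 carried Xcr1 or Clec9a.

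**Figure D1:**
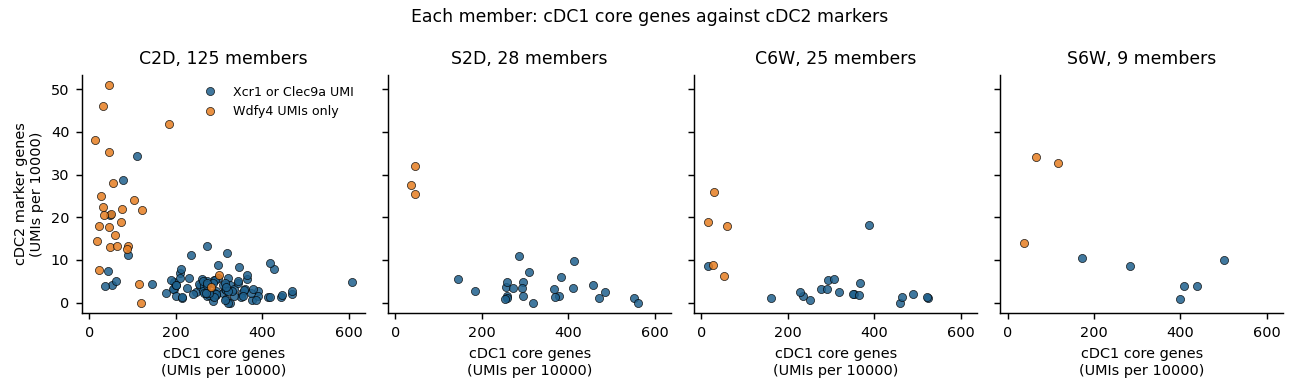
Each point is 1 cDC1, placed by its UMIs per 10000 over cDC1 core genes outside the rule (x axis) and over cDC2 marker genes (y axis), 1 panel per library. Cells with Xcr1 or Clec9a (blue) lie mostly at high core and low cDC2 values, with C2D medians of 289.2 and 3.35, while cells with Wdfy4 only (orange) lie mostly at low core and higher cDC2 values, with C2D medians of 55.1 and 18.9.

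Beside cDC2, their sister branch, the genes that kept the largest excess in all 4 libraries were Naaa, Wdfy4, Ppt1, Agpat3, Irf8, Txndc15, Clec9a, Ncoa7, Xcr1 and Rab7b. The cDC2 were the MHC class II barcodes with Cd209a and under 2 UMIs over Xcr1, Clec9a and Wdfy4, so the excess of these 3 genes was fixed on both sides, and the 51 C2D barcodes with Cd209a and 2 or more such UMIs are in neither class. There were 134 cDC2 in C2D and 6 to 8 in each other library. Naaa stood at 857.4 CPM (UMIs per 1000000, scaled over these cell types) in cDC1 and 67.4 in cDC2 of C2D, a log2 ratio of 3.67, with 5.34 in S2D, 4.05 in C6W and 4.26 in S6W. Irf8 gave 2.65, 6.68, 2.65 and 5.30 in the same libraries, and Ppt1, a lysosomal thioesterase, 3.21, 4.32, 5.31 and 4.44. In S2D, C6W and S6W these ratios rest on few cDC2 UMIs: 2, 4 and 2 of Naaa, 1, 15 and 1 of Irf8, and 4, 2 and 3 of Ppt1. The Irf8 intervals were 4.19 to 11.98 in S2D and 2.78 to 10.62 in S6W, so the sizes are not compared between libraries. Flt3, the growth factor receptor of both branches, differed little, at -0.20, 0.30, 0.63 and 0.49. The choice of the cells bears on all of these ratios.

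The first question was how many cDC1 the suspensions held. In C2D they made up 125 of 4656 kept barcodes (2.685%, 2.24 to 3.19%), against 28 of 3346 in S2D (0.837%, 0.557 to 1.21%), a ratio of 3.21 (2.12 to 5.02). At 6 weeks the shares were 25 of 2773 in C6W (0.902%, 0.584 to 1.33%) and 9 of 2032 in S6W (0.443%, 0.203 to 0.839%), a ratio of 2.04 whose interval (0.919 to 4.96) includes 1. Thresholds in UMIs read depth, so barcodes were also thinned to 3000 UMIs each. The share was then 1.425% in C2D and 0.710% in S2D, a ratio of 2.01 (1.22 to 3.43), and 0.604% in C6W and 0.155% in S6W, from 3 cells, a ratio of 3.90 (1.12 to 20.9). Cells with Xcr1 or Clec9a alone gave 2.82 and 2.44.

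Among MHC class II barcodes outside macrophages and B cells, cDC1 were not a larger fraction in C2D. They were 125 of 421 in C2D (29.7%, 25.4 to 34.3%), 28 of 71 in S2D (39.4%, 28.0 to 51.75%), 25 of 58 in C6W (43.1%, 30.2 to 56.8%) and 9 of 35 in S6W (25.7%, 12.5 to 43.3%). The ratio of C2D to S2D was 0.753 (0.497 to 1.18), and 0.434 (0.263 to 0.742) with barcodes thinned to 3000 UMIs. The ratio of C6W to S6W was 1.68 (0.757 to 4.08). In thinned barcodes the limits on C1qa, C1qb, C1qc and Cd79a were read on thinned counts. Barcodes above these limits at full depth could thus enter the class. Thinned, it held 435 barcodes in C2D, against 421 with all UMIs, and 67 in S2D, against 71. The part of macrophages and B cells in the thinned ratio was not tested. The sort on DAPI, tissue dissociation and the number of all other cells also enter these shares, and their part was not tested.

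**Figure D2:**
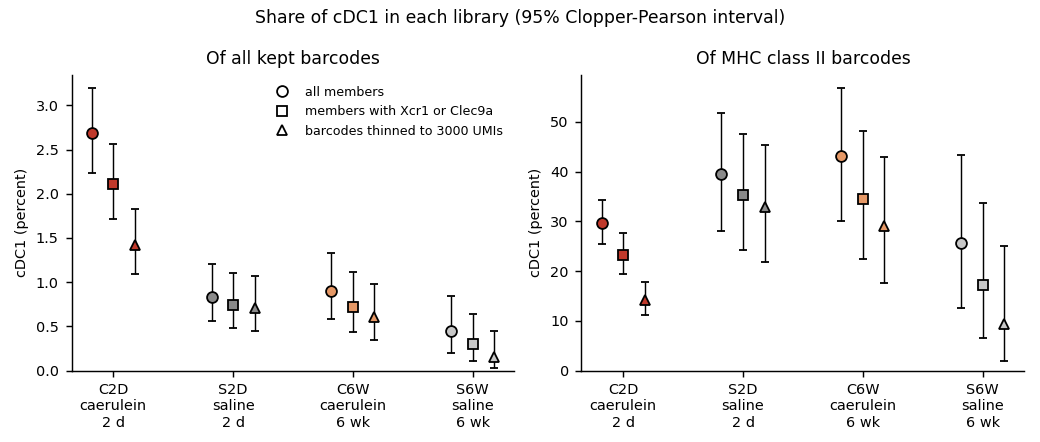
Share of cDC1 (percent, y axis) of all kept barcodes (left) and of MHC class II barcodes (right) in each library, with 95% Clopper-Pearson intervals, for all cDC1 (circles), those with Xcr1 or Clec9a (squares) and barcodes thinned to 3000 UMIs (triangles). C2D stands highest on the left at 2.685% for all cDC1, while on the right C2D at 29.7% lies below S2D at 39.4%.

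The second question was which genes differed in cDC1 at 2 days. UMIs were summed over the cDC1 of a library and levels are given below as CPM on totals adjusted by the trimmed mean of M-values (TMM). A gene counts as higher or lower when the ratio of levels is at least 2-fold (log2 of 1 or -1), if it has 100 or more UMIs in the pair of libraries, or 20 or more for members of a gene list. In C2D, 116 of 2877 genes were at least 2-fold higher than in S2D (4.03%) and 28 were lower by that much (0.973%), together 5.01%. Over all these genes the log2 ratio had a median of 0.07. At the 20 UMI minimum used for lists, 674 of 7190 genes (9.37%) were higher and 217 (3.02%) lower, together 12.4%. Single cells carried some of these calls: 16 of the 116 genes drew at least 50% of their C2D UMIs from 1 cell, and with the top cell of each gene left out 93 genes were higher and 14 lower. With that step and 4 stricter choices of cells each applied in turn, 69 genes were higher and 13 lower under all 5 choices. These were the top cell left out, called doublets left out, 3 or more UMIs of the rule's 3 genes, RNA of other cells limited, and Xcr1 or Clec9a detected. Leaving out dividing or mature cells was not among them: without dividing cells Cebpb gave 0.74 and Col3a1 0.82, and without mature cells Sparc gave 0.48. Ccr7 gave -2.26 without mature cells, but it is among the genes that define them, so this value was largely set by that choice.

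Identity genes come first. All 28 genes of the cDC1 core list, which was written with earlier results of these data known, were measured. Of these 0 were higher and 4 lower, with a median log2 ratio of -0.28, beside 9.37% higher and 3.02% lower over all genes. The list holds the rule genes Xcr1, Clec9a and Wdfy4, so values that chose the cells enter these counts and the median. Clec9a, a rule gene, stood at 151.3 CPM in C2D, 178.6 in S2D, 118.9 in C6W and 97.9 in S6W. Plbd1 was at 1108, 1208, 967 and 666.9. Naaa was at 787.1, 809.9, 559.6 and 363.8 CPM in the same order, and Irf8 at 781.3, 1024, 794.2 and 373.1. These values differed by less than 2-fold between C2D and S2D, with log2 ratios of -0.24 (-0.56 to 0.09), -0.13, -0.04 and -0.39.

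The lower core genes were Qpct, Xcr1, Tlr3 and Rab43. Xcr1 was at 109.9 CPM in C2D, against 233.1 in S2D, 180.7 in C6W and 158.6 in S6W, a log2 ratio of C2D over S2D of -1.08 (-1.40 to -0.77). Xcr1 was in the rule, and its ratio was -0.88 in cells with Xcr1 or Clec9a, under the 2-fold line. Tlr3, an endosomal sensor of double-stranded RNA that cDC1 use to read material from dead and infected cells, was at 36.15 CPM in C2D, against 76.6 in S2D, 66.6 in C6W and 18.65 in S6W (-1.08, -1.63 to -0.52, and -0.92 in cells with Xcr1 or Clec9a). Rab43, a vesicle GTPase used in cross-presentation, was at 34.7 CPM in C2D, against 71.5 in S2D (-1.04, and -0.88 in those cells). Qpct, which cyclises the ends of secreted peptides, was at 33.7 CPM in C2D, against 88.5 in S2D, 82.4 in C6W and 74.6 in S6W (-1.39, -1.93 to -0.84, and -1.86 in those cells). Of the 4, Qpct alone stayed at least 2-fold lower under all 5 choices of cells.

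Antigen presentation genes differed little between C2D and S2D. Of 11 measured MHC class II genes, 0 were higher and 0 lower, with a median log2 ratio of 0.12. Beside these lists, 9.37% of all genes were higher and 3.02% lower. H2-Aa, a rule gene, stood at 13033 CPM in C2D, 12025 in S2D, 11325 in C6W and 15115 in S6W, and Cd74, the invariant chain, at 31783, 31074, 28810 and 38121. Of 24 genes of MHC class I and cross-presentation, 0 were higher and 1 lower (Rab43), with a median of 0.05, and H2-K1, a class I heavy chain, was at 1359 CPM in C2D, against 1062 in S2D. The macrophages of the same C2D library had 1347 plain CPM of H2-Aa, against 11909 in S2D macrophages. Of 14 costimulation and checkpoint genes, 1 was higher (Lgals9, 30.85 CPM in C2D, against 10.2 in S2D) and 1 lower (Axl, 15.4 and 32.3, with a log2 ratio of -1.70 in cells with Xcr1 or Clec9a), with a median of 0.04.

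Genes of cytokine signalling were among those higher in C2D. Socs3, the feedback inhibitor of STAT3-type receptors, was at 473.3 CPM in C2D, against 93.6 in S2D, 125.2 in C6W and 125.9 in S6W. C2D stood apart from the 3 other libraries, with a log2 ratio over S2D of 2.34 (1.95 to 2.76), and 2.29 in cells with Xcr1 or Clec9a. Socs3 UMIs were found in 102 of 125 C2D cells and 16 of 28 S2D cells, and no C2D cell held more than 4.28% of them. In the other cell types, on plain CPM, the C2D over S2D log2 ratio of Socs3 was 1.11 in macrophages (941.0 CPM in C2D, 435.6 in S2D), -0.25 in fibroblasts (1269 and 1510) and -1.18 in B cells (65.1 and 147.0). The part of free RNA in the cDC1 value was not tested.

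The Socs3 promoter is shown because Socs3 UMIs lay in most C2D cells and no single cell held a large part of them. RefSeq gives it on GRCm38.p6 at chr11:117969317-117969616, minus strand, 250 bases before to 50 after the start site. Capitals mark its 1 match to TTCNNNGAA, the core of a STAT site, where N is any base. The pattern, though not the matched bases themselves, reads alike on both strands. The match starts 154 bases before the start site. The pattern is found in 8.30% of 32851 promoters of this length, and a match says nothing of binding.
Socs3 promoter: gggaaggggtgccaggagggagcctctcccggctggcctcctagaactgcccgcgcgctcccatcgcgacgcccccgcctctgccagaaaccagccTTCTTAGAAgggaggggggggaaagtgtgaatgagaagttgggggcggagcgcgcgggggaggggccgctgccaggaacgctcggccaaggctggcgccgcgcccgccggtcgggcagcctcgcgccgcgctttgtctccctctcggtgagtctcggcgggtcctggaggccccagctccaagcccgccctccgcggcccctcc

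Among 18 measured cytokine receptor genes, 5 were higher and 0 lower, with a median of 0.60. Over all genes at the 20 UMI minimum 9.37% were higher and 3.02% lower, with a median of 0.0549. Il10rb, a chain of the interleukin 10 and interleukin 22 receptors, was at 57.4 CPM in C2D, against 13.6 in S2D, 41.2 in C6W and 42.0 in S6W (2.08, 1.05 to 3.32). S2D was the low library here, and the 6-week libraries stood nearer to C2D. Il21r was at 50.6 CPM in C2D, against 2 UMIs in S2D (3.403 CPM), 23.8 in C6W and 9.33 in S6W (3.89, 2.01 to 6.96, and 3.19 in cells with Xcr1 or Clec9a). Tnfrsf1b, a TNF receptor, was at 56.4 CPM in C2D, against 23.8 in S2D (1.24). The 2 others, Csf1r and Tgfbr2, were at 34.7 and 22.65 CPM in C2D, against 6.81 and 10.2 in S2D. Csf1r, a receptor of macrophages, gave 0.38 in cells with Xcr1 or Clec9a, under the 2-fold line.

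Immediate early and stress genes differed in both directions. Of 22 such genes 3 were higher (Ier3, Socs3, Egr1) and 3 lower (Hspa1a, Hspa1b, Hsph1), with a median of -0.08. The shares over all genes were 9.37% higher and 3.02% lower. Ier3, an early gene induced by stress and NF-kB, was at 178.3 CPM in C2D, against 15.3 in S2D, 26.95 in C6W and 144.6 in S6W, with a C2D over S2D log2 ratio of 3.54 (2.60 to 4.68). The S6W value from 9 cells lay near that of C2D, so the saline libraries disagreed. Macrophages (1.25) and fibroblasts (1.40) also had more Ier3 in C2D on plain CPM.

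The lower members were heat shock genes, and all 3 stayed at least 2-fold lower under all 5 choices of cells. Hspa1a, an inducible chaperone of the HSP70 family, was at 338.4 CPM in C2D, against 864.3 in S2D, 499.4 in C6W and 233.2 in S6W (-1.35, -1.52 to -1.19). Hsph1, an HSP110 chaperone, was at 28.9 CPM in C2D, against 95.3 in S2D, 41.2 in C6W and 18.65 in S6W (-1.72, -2.27 to -1.17). S2D was the highest library for both, and S6W was lower than C2D. Macrophages and fibroblasts showed the same direction: on plain CPM Hspa1a gave -3.69 in macrophages and -1.97 in fibroblasts, and Hsph1 -1.71 and -1.66. Such genes respond to handling of the tissue, whose part was not tested.

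Hspa1b was at 47.7 CPM in C2D, against 156.5 in S2D, 85.6 in C6W and 4.66 in S6W (-1.71, -2.14 to -1.29). Hspa1a and Hspa1b are near-identical neighbouring copies whose reads may not be told apart, so each value is uncertain. Their RefSeq promoters, 250 bases before to 50 after the start site on the minus strand of GRCm38.p6, lie at chr17:34972107-34972406 (Hspa1a) and chr17:34959189-34959488 (Hspa1b). They are identical at 296 of 300 bases (98.7%) and are shown because both genes were lower in C2D. Capitals mark the 4 bases that differ.
Hspa1a promoter: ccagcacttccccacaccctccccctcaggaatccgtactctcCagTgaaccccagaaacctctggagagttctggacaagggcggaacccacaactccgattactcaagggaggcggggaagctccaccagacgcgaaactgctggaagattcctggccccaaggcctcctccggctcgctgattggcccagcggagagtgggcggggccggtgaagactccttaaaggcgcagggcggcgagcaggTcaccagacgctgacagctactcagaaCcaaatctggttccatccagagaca
Hspa1b promoter: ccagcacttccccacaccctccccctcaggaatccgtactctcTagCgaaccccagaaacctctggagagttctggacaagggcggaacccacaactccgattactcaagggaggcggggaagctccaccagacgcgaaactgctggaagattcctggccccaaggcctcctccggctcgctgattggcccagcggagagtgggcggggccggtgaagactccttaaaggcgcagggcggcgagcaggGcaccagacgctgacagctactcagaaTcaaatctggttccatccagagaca

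Cytokine and chemokine genes differed in both directions. Of 19 measured, 8 were higher and 3 lower in C2D, with a median of 0.86, beside 9.37% higher and 3.02% lower over all genes. Il1b, the inflammatory cytokine interleukin 1 beta, was the most abundant, at 2407 CPM in C2D, against 1325 in S2D, 1554 in C6W and 573.6 in S6W (0.86, 0.75 to 0.97, under the 2-fold line). It was found in 109 of 125 C2D cells and 26 of 28 S2D cells. Cxcl2, a neutrophil attractant, was at 400.1 CPM in C2D, against 34.0 in S2D, 15.85 in C6W and 18.65 in S6W (3.56, 2.92 to 4.27), but 1 cell held 39.5% of its C2D UMIs, and C2D macrophages had 7797 plain CPM. Tnf was at 53.5 CPM in C2D, against 10.2 in S2D, 26.95 in C6W and 56.0 in S6W (2.39, 1.22 to 3.87). Il10 had no UMI in S2D and 64 in C2D, and was at least 6.04-fold higher against a floor of 3 counts over the S2D cells, with 381.9 plain CPM in C2D macrophages. In cells with Xcr1 or Clec9a the log2 ratio of Il10 was at least 1.60, from 28 UMIs. Il12b, the interleukin 12 subunit by which cDC1 drive type 1 T cell responses, was at 45.3 CPM in C2D, against 90.2 in S2D, 42.8 in C6W and 116.6 in S6W (-0.99, -1.49 to -0.48), with 62.8% of its C2D UMIs in 1 cell. Ccl3, Il1a, Il6, Ccl5 and Il1rn were also higher. In cells with Xcr1 or Clec9a, however, Ccl3, Il1a and Il1rn gave 0.04, 0.70 and 1.70, and only 9 of the 117 Ccl5 UMIs of C2D remained. For Il6, 1 cell held 92.7% of the C2D UMIs.

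The 3 lower chemokines were Ccl22, Ccl17 and Cxcl9. Ccl22, a ligand of CCR4 on regulatory T cells, was at 20.7 CPM in C2D, against 139.5 in S2D, 215.6 in C6W and 331.1 in S6W. C2D was lowest of the 4, and the ratio over S2D was -2.75 (-3.32 to -2.20), with UMIs in 15 of 125 C2D cells and 8 of 28 S2D cells. Of the S2D UMIs of Ccl22, 45.1% came from 1 cell. The ratio was -1.89 without that cell and -1.68 with RNA of other cells limited. Ccl17, the other CCR4 ligand, was at 3.86 CPM in C2D, against 85.1 in S2D, 236.2 in C6W and 750.8 in S6W (-4.46), but 76.0% of its S2D UMIs came from 1 cell, and the ratio was -6.26 in cells with Xcr1 or Clec9a. Cxcl9, a ligand of CXCR3 on effector T cells, was at 29.4 CPM in C2D, against 144.6 in S2D, 144.3 in C6W and 4.66 in S6W (-2.30, -2.80 to -1.81). Its UMIs lay in 10 of 125 C2D cells and 6 of 28 S2D cells, with 37.7% and 32.9% of them in 1 cell. The saline libraries disagreed on Cxcl9, since S6W, from 1 UMI, lay below C2D. Ccl22 and Cxcl9 stayed at least 2-fold lower under all 5 choices of cells.

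Cd81, a tetraspanin of the plasma membrane, was at least 2-fold lower in C2D under all 5 choices of cells. It stood at 75.2 CPM in C2D, against 374.3 in S2D, 299.6 in C6W and 242.5 in S6W. C2D was the low library, at -2.32 over S2D (-2.62 to -2.01) and -2.23 in cells with Xcr1 or Clec9a. Macrophages showed the same contrast on plain CPM (93.6 in C2D, 858.1 in S2D, -3.20), while fibroblasts (-0.14) and B cells (0.41) did not reach 2-fold. Serpinb9, a granzyme B inhibitor that guards cDC1 from killing by T cells, was at 18.3 CPM in C2D, against 120.8 in S2D, 80.85 in C6W and 153.9 in S6W (-2.72, -3.33 to -2.13), with 50.7% of the S2D UMIs in 1 cell. Bcl2a1a, a survival gene with copies whose reads may not be told apart, was at 75.7 CPM in C2D, against 204.2 in S2D, 229.9 in C6W and 242.5 in S6W (-1.43, -1.78 to -1.08). Cd36, a scavenger receptor linked to uptake of dying cells, was at 44.8 CPM in C2D, against 120.8 in S2D, 158.5 in C6W and 158.6 in S6W (-1.43, -1.89 to -0.96). In each of these 4 genes the 2 caerulein libraries disagreed, C6W standing near the saline libraries.

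**Figure D3:**
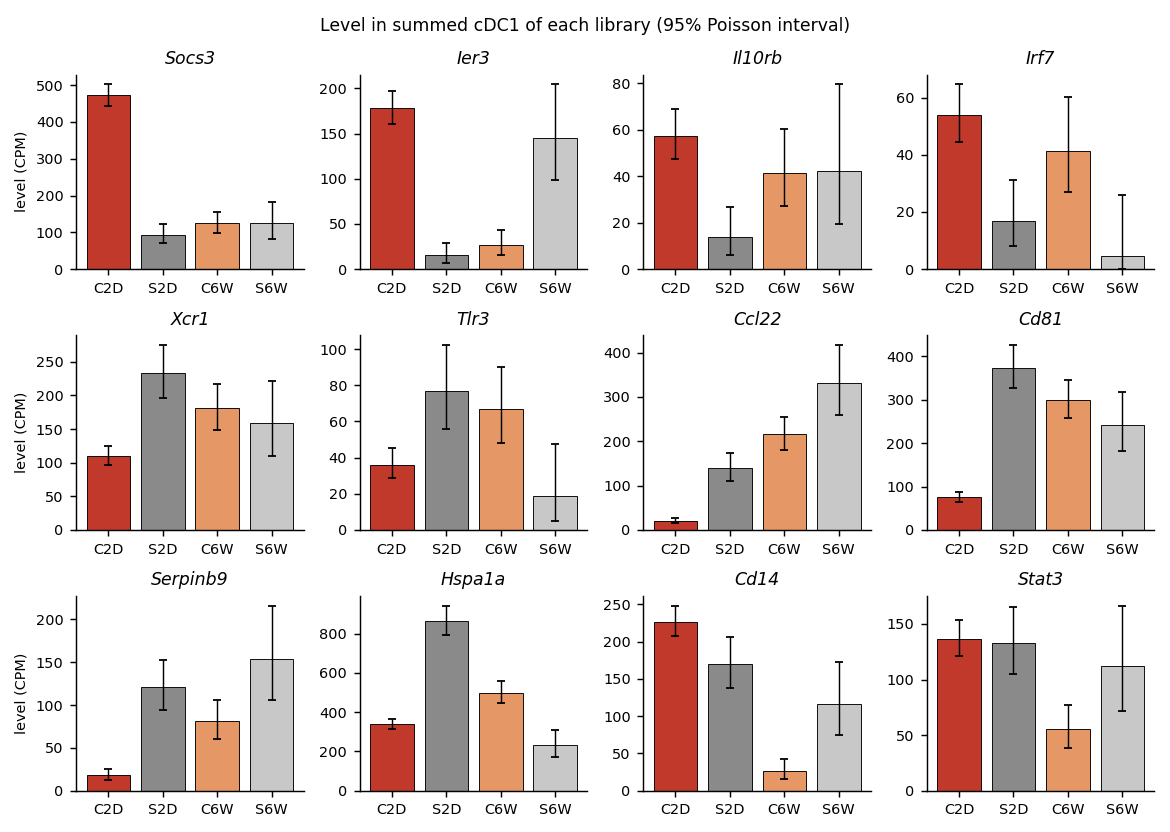
Level (CPM on TMM-adjusted totals, y axis) of 12 genes in the summed cDC1 of C2D, S2D, C6W and S6W, with 95% Poisson intervals. Socs3 is highest in C2D at 473.3 CPM, Ccl22 and Cd81 are lowest in C2D at 20.7 and 75.2 CPM, and Cd14 and Stat3 are lowest in C6W at 26.95 and 55.5 CPM.

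Lysosomal and lipid-handling genes had the highest median of the 16 functional lists, 1.10, with 12 of 22 higher and 1 lower in C2D. Over all genes 9.37% were higher and 3.02% lower. Ctsl, a cathepsin that cuts antigen, was at 109.4 CPM in C2D, against 22.1 in S2D, 9.51 in C6W and 9.33 in S6W (2.31). Ctsd was at 163.4 CPM in C2D, against 5.10 in S2D from 3 UMIs, a ratio of 32.0-fold, with a log2 ratio of 4.04 in cells with Xcr1 or Clec9a. Ctsa, a carboxypeptidase, was at 107.0 CPM in C2D, against 42.5 in S2D (1.33, 0.73 to 1.99). Apoe, the lipid carrier of macrophages, was at 1161 CPM in C2D, against 32.3 in S2D, 6.34 in C6W and 27.98 in S6W (5.17, 4.52 to 5.90, and 4.30 in cells with Xcr1 or Clec9a). Of the C2D UMIs of Apoe 49.7% lay in 1 cell, and 120 of 125 cells held at least 1, against 9 of 28 in S2D. Macrophages were 2157 of the C2D barcodes and 63 of the S2D barcodes, with 53750 and 23296 plain CPM of Apoe, and B cells had 650.7 and 248.3. For Ctsd, macrophages had 6941 plain CPM in C2D, against 443.2 in S2D. With 3 or more UMIs over Xcr1, Clec9a and Wdfy4 required, the list median was 0.58. The part of macrophage RNA in these values was not tested.

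Several marker lists of other cell types had higher members in C2D, read beside 9.37% higher and 3.02% lower over all genes. Of 9 measured macrophage markers 7 were higher (median 1.60), of 6 monocyte markers 3 (1.10) and of 10 cDC2 markers 4 (0.80). Of 8 plasmacytoid dendritic cell markers 5 were higher (1.72), and of 4 fibroblast markers 4 (4.59). The macrophage list includes C1qa, C1qb and C1qc, which the rule capped, so its count is description only. Ratios of 4 of the 9 macrophage and 3 of the 4 fibroblast markers were bounds, with a library at 0 UMIs set to a floor of 3. So was 1 ratio each among the monocyte and plasmacytoid markers. The 1 measured B cell marker, Igkc, was lower (-4.33), and of 34 digestive enzyme genes 8 were higher and 16 lower (-0.51). As a median per cell, macrophage markers stood at 9.16 UMIs per 10000 in C2D (0.754 to 603.7 over cells) and 7.99 in S2D (0 to 119.9). For each fibroblast-type gene 1 cell dominated, with 92.25% of the C2D UMIs of Col3a1, 92.6% of Col1a1 and 86.9% of Mgp, all 3 among the 10 genes with the highest ratios by their interval. Of the plasmacytoid marker Siglech, 5 C2D cells held 5 or more UMIs, up to 25 in a cell, against at most 1 UMI in any cDC1 of the other libraries. Siglech was at 50.6 CPM in C2D, against 5.10 in S2D. The C2D cells with 25, 21, 19 and 6 Siglech UMIs held Clec9a, so they count among the cells with Xcr1 or Clec9a. Their cDC1 core genes stood at 37.25, 62.1, 43.6 and 51.75 UMIs per 10000, against a median of 289.2 in that C2D set. The restriction to Xcr1 or Clec9a therefore does not remove them, and Siglech gave a log2 ratio of 3.12 there.

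**Figure D4:**
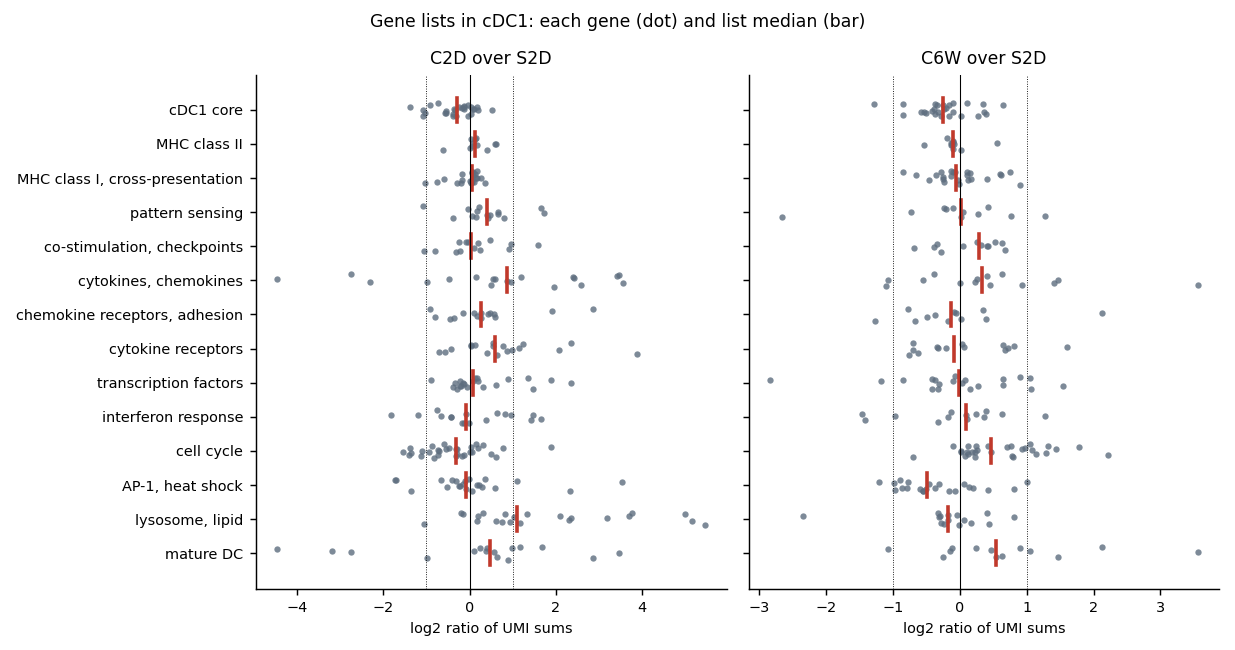
Log2 ratio of each measured gene (dots) and the median (red bar) for 14 gene lists in summed cDC1, C2D over S2D (left) and C6W over S2D (right), with dotted lines at the 2-fold limits. On the left MHC class II genes lie near 0 (median 0.12) and lysosomal and lipid genes highest (1.10), and on the right cell cycle genes have a median of 0.47.

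Transcription factors are given next. Of 21 measured factors 4 were higher (Zeb2, Irf4, Tcf4, Cebpb), beside 9.37% of all genes, and 0 lower, with a median of 0.08. Batf3 was at 136.4 CPM in C2D, against 171.8 in S2D, 95.1 in C6W and 88.6 in S6W (-0.33), and Id2, which holds the branch against the plasmacytoid fate, at 671.9, 585.3, 437.5 and 1003 (0.20). Cebpb, a factor of myeloid inflammatory programmes, was at 174.5 CPM in C2D, against 68.1 in S2D, 9.51 in C6W and 69.95 in S6W (1.36, 0.88 to 1.87), and 2.24 in cells with Xcr1 or Clec9a. Zeb2, a factor of plasmacytoid and monocytic cells, was at 60.7 CPM in C2D, against 11.9 in S2D, 34.9 in C6W and 121.3 in S6W (2.35), from 25 C2D cells and 3 S2D cells. Tcf4, the E protein of plasmacytoid cells, was at 65.55 CPM in C2D, against 23.8 in S2D (1.46, 0.66 to 2.37). Irf4 rested on 2 S2D UMIs and gave 0.19 in cells with Xcr1 or Clec9a.

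Pattern sensing and interferon response genes showed no common direction, read beside 9.37% higher and 3.02% lower over all genes. Of 15 sensing genes 2 were higher (Tlr2, Irf7) and 1 lower (Tlr3), with a median of 0.42, and Tlr2 gave 0.02 in cells with Xcr1 or Clec9a. Of 31 interferon response genes 17 were measured, 3 higher (Irf7, Isg15, Xaf1) and 2 lower (Irgm1, Ifi47), with a median of -0.08. Irf7, the factor that amplifies type I interferon, was at 53.98 CPM in C2D, against 17.0 in S2D, 41.2 in C6W and 4.66 in S6W (1.67, 0.73 to 2.77), and 1.67 in cells with Xcr1 or Clec9a. In macrophages Irf7 gave -1.05 on plain CPM.

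Division and maturation were read next. Dividing cells were those with 2 or more UMIs over 9 mitotic genes such as Mki67 and Top2a. They were 26 of 125 cDC1 in C2D (20.8%, 14.1 to 29.0%), against 10 of 28 in S2D (35.7%, 18.6 to 55.9%), and 11 of 25 in C6W (44%, 24.4 to 65.1%) against 4 of 9 in S6W (44.4%, 13.7 to 78.8%). Thinned to 3000 UMIs the shares were 9.68% in C2D and 17.9% in S2D, and 24% in C6W and 22.2% in S6W. Thinned cells with Xcr1 or Clec9a gave 10.2% in C2D, 20% in S2D, 30% in C6W and 16.7% in S6W. The intervals of each pair overlap. Fibroblasts thinned alike, as a background, gave 1.18% in C2D, 0.148% in S2D, 0.0902% in C6W and 0.405% in S6W. The cDC2 (6.92%, 3.21 to 12.7%) and macrophages (6.82%) of C2D lay inside the cDC1 interval of 5.10 to 16.3%, and B cells of C6W gave 6.69%. Of 31 cell cycle genes 1 was higher and 6 lower in C2D over S2D, with a median of -0.32. The shares over all genes were 9.37% higher and 3.02% lower. Ube2c, a mitotic ubiquitin enzyme, was at 72.3 CPM in C2D, against 156.5 in S2D (-1.11, -1.50 to -0.72), although 76.1% of its S2D UMIs came from 1 cell.

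Mature cDC1 leave the tissue for lymph nodes through CCR7. Cells with 2 or more UMIs over Ccr7, Fscn1, Ccl22, Il4i1 and Cacnb3 were 24 of 125 in C2D (19.2%, 12.7 to 27.2%), against 8 of 28 in S2D (28.6%, 13.2 to 48.7%), and 14 of 25 in C6W (56%, 34.9 to 75.6%) against 8 of 9 in S6W (88.9%, 51.75 to 99.7%). Thinned to 3000 UMIs they were 8.87% in C2D and 10.7% in S2D, and 36% in C6W and 22.2% in S6W, so the order at 6 weeks depended on depth. Thinned cells with Xcr1 or Clec9a gave 4.08% in C2D (1.12 to 10.1%) and 12% in S2D (2.55 to 31.2%). They gave 35% in C6W and 16.7% in S6W. The maturation genes are not limited to dendritic cells: thinned B cells gave 28.6% in C2D, 39.2% in S2D, 43.7% in C6W and 55.1% in S6W. Macrophages gave 0.947%, 3.51%, 1.14% and 1.71% in the same order. The thinned cDC2 gave 36.15% in C2D (27.9 to 45.0%), 33.3% in S2D, 50% in C6W and 57.1% in S6W, the last 3 from 6 or 7 cells each.

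The maturation genes had no common direction at 2 days. Of 16 measured, 4 were higher and 3 lower, with a median of 0.48, beside 9.37% higher and 3.02% lower over all genes. Ccr7 was at 162.0 CPM in C2D, against 22.1 in S2D, 96.7 in C6W and 373.1 in S6W (2.87, 2.08 to 3.80, and 3.497 in cells with Xcr1 or Clec9a). It lay in 20 of 125 C2D cells and 6 of 28 S2D cells, so positive cells were no more frequent in C2D and held more UMIs each. Fscn1, which bundles actin in mature dendritic cells, had 34 UMIs in C2D and 0 in S2D, and Il4i1 was at 34.7 CPM in C2D, against 15.3 in S2D (1.18, 0.18 to 2.37), with all S2D UMIs in 1 cell. Ccl22, Ccl17 and Serpinb6b were lower, the last at 9.16 CPM in C2D, against 83.4 in S2D (-3.19, -4.03 to -2.40). Ccr7 and Ccl22, both of mature dendritic cells, thus differed in opposite directions.

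**Figure D5:**
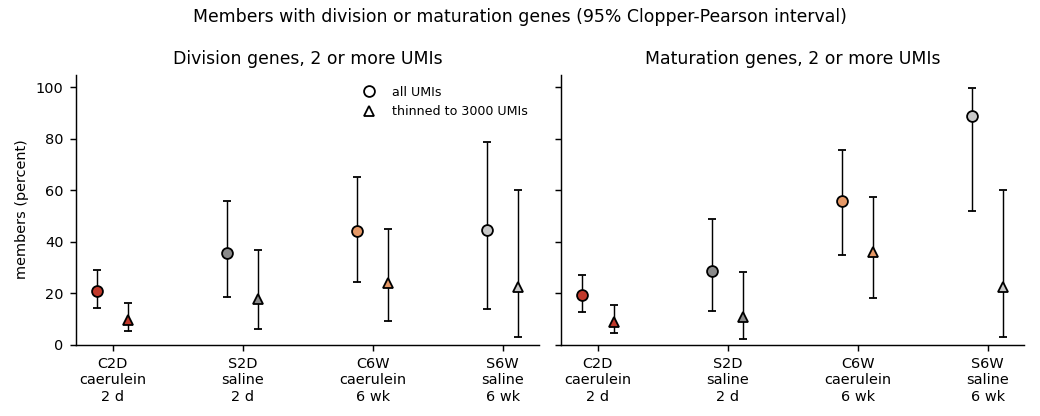
Share of cDC1 (percent, y axis) with 2 or more UMIs of division genes (left) or maturation genes (right) in each library, with 95% Clopper-Pearson intervals, with all UMIs (circles) and thinned to 3000 UMIs (triangles). C2D has the lowest share in each panel with all UMIs, 20.8 and 19.2%, and the S6W maturation share is 88.9% with all UMIs and 22.2% thinned.

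The third question, which the series title frames as a memory of inflammation, was what differed at 6 weeks. S6W gave 9 cDC1, under the 10 required for ratios, so its values are levels only, and C6W is set over S2D, the other saline library. This ratio changes the treatment and the recovery time at once, and the part of each cannot be told apart. Both comparisons therefore share S2D. Of 1351 genes, 12 were at least 2-fold higher in C6W (0.888%) and 9 were lower by that much (0.666%), together 1.55%, with a median of -0.02. At the 20 UMI minimum these were 209 (4.20%) and 185 (3.71%) of 4980, together 7.91%. Under all 5 choices of cells 1 gene was higher, the uncharacterised transcript 4930523C07Rik at 160.1 CPM in C6W, against 52.7 in S2D, 107.3 in S6W and 53.98 in C2D, named for that after its value was seen. Both 6-week libraries stood above both 2-day libraries. The 4 lower under all 5 choices were Cd14, Hfe, Sept9 and Stat3.

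Cd14, the lipopolysaccharide co-receptor, was at 26.95 CPM in C6W, against 170.1 in S2D, 116.6 in S6W and 227.0 in C2D. C6W was the lowest library, with a log2 ratio over S2D of -2.66 (-3.49 to -1.91), and -2.03 in cells with Xcr1 or Clec9a. Stat3, which carries interleukin 6 and interleukin 10 signals, was at 55.5 CPM in C6W, against 132.7 in S2D, 111.9 in S6W and 136.4 in C2D (-1.26, -1.88 to -0.67), and -1.88 in cells with Xcr1 or Clec9a. It had UMIs in 16 of 25 C6W cells and 25 of 28 S2D cells. Hfe, an MHC class I-like regulator of iron, was at 60.2 CPM in C6W, against 158.2 in S2D, 74.6 in S6W and 85.8 in C2D (-1.39), so S2D was the library that stood apart there. Sept9, a septin of the cytoskeleton, was at 63.4 CPM in C6W, against 154.8 in S2D, 55.96 in S6W and 94.95 in C2D (-1.29), again with S2D alone. Nfil3, a factor needed for cDC1 development, was at 57.1 CPM in C6W, against 129.3 in S2D, 88.6 in S6W and 145.1 in C2D (-1.18, -1.79 to -0.59). Cebpb was at 9.51 CPM in C6W, against 68.1 in S2D (-2.84), where 1 cell held 67.5% of the S2D UMIs, and gave -1.14 in cells with Xcr1 or Clec9a.

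Among the genes higher in C6W, Il1r2, the decoy receptor of interleukin 1, was at 282.2 CPM in C6W, against 98.7 in S2D, 135.2 in S6W and 163.4 in C2D (1.52, 1.08 to 1.97), but 0.52 in cells with Xcr1 or Clec9a. S100a4, a calcium-binding protein of motile cells, was at 512.1 CPM in C6W, against 195.7 in S2D and 391.7 in S6W (1.39), with 52.3% of the C6W UMIs in 1 cell, and 2.54 in cells with Xcr1 or Clec9a. Top2a, a topoisomerase of dividing cells, was at 152.2 CPM in C6W, against 56.15 in S2D, 191.2 in S6W and 51.6 in C2D (1.44, 0.85 to 2.06). Tuba1b, a tubulin, was at 585.0 CPM in C6W, against 263.7 in S2D, 699.5 in S6W and 234.3 in C2D (1.15, 0.87 to 1.43). For both, the 2 libraries at 6 weeks stood near each other and above the 2 at 2 days. The S6W levels come from 9 cells, however. Of these, 1 held 108 UMIs over the division genes, which include Top2a, another held 37, and no other more than 5.

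By list, 8 of 29 cell cycle genes were higher and 0 lower in C6W over S2D, with a median of 0.47. Over all genes in this comparison 4.20% were higher and 3.71% lower. Few C6W cells carried much of this RNA: the highest held 174 UMIs over the division genes, and the next 103, 83 and 58. The cell with 103 had cDC1 core genes at 15.54 UMIs per 10000, against a median of 334.8 in C6W cells with Xcr1 or Clec9a. Of 27 cDC1 core genes, Xcr1, Clec9a and Wdfy4 of the rule included, 0 were higher and 1 lower (Gcsam, -1.28), with a median of -0.26. Of 11 MHC class II genes 0 were either, with a median of -0.11. Lysosomal and lipid genes had 0 of 15 higher and 1 lower (Apoe), with a median of -0.17. Socs3 was at 125.2 CPM in C6W, against 125.9 in S6W, and Ccl22 at 215.6 and 331.1. Cd81 was at 299.6 CPM in C6W, against 242.5 in S6W. In these 3 genes, which stood apart in C2D, the 6-week caerulein value lay within 2-fold of the 6-week saline value.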

How the data were processed

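Droplet single-cell 3′ RNA libraries were made from sorted pancreatic cells, 1 library for each of 4 groups. The authors deposited filtered matrices of UMI counts per gene and barcode, made with Cell Ranger 3.0.2 on mm10, per the submitters' processing notes, and these raw counts of 31053 genes were used as deposited. UMIs were summed over the cDC1 of a library, scaled by TMM (edgeR 4.0.16 in R 4.3.3) and compared as ratios with exact conditional binomial intervals. Shares have Clopper-Pearson intervals and levels exact Poisson intervals, all at 95%, and a count of 0 was set to a floor of 3. Ratios needed 10 cDC1 per library, so C6W was set over S2D in place of S6W. No differential test was run, since each group is 1 library. The procedure was tested on simulated sums drawn with counting error only, so variation between cells or animals was not part of that test.

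The members, the 28 gene lists and the comparisons were chosen with earlier results of these data known. Named genes were the 10 highest and 10 lowest ratios by the interval bound nearest 0, up to 4 genes of each functional list, and all cDC1 core genes, leaving out mitochondrial, ribosomal, haemoglobin, immunoglobulin, digestive, sex-linked and unnamed genes. Alternatives changed the cells, depth, scaling (plain CPM, DESeq2 1.42.0 size factors) and minimum counts. Doublets were called with Scrublet (scanpy 1.11.5), which marked 0.408% of C2D barcodes, too few to rely on there, and 3 cDC1, all in C2D. Promoter sequences are from RefSeq and gene positions from GENCODE.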

Additional observations from a re-analysis of the deposited data

Results flagged for a closer look

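The share of cDC1 among MHC class II barcodes pointed in opposite directions at the 2 times. The ratio of C2D over S2D was 0.7529 (0.497 to 1.18) and that of C6W over S6W was 1.676 (0.757 to 4.08). Each interval includes 1, and the difference between the ratios was not tested, since each group is 1 library.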

How the results depend on the processing

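With 1 library per group, no replicate could be left out, and p-values and the variation between animals are beyond these data. No paired analysis was possible because each group holds 1 library. Gene ratios of C6W over S6W were not run, since S6W has 9 cDC1. The restriction to cells with Xcr1 or Clec9a, the removal of a gene's top cell and the thinning of the cell states were chosen after seeing the data. Values under another setting lay within the reported counting interval, or for gene counts within 1.5 times, for 18 of 28 gene counts, 200 of 208 list medians and 1444 of 1670 named gene values in C2D over S2D, and for 18 of 28, 205 of 208 and 1270 of 1424 in C6W over S2D. Share ratios lay within it for all 14 of C6W over S6W and 12 of 14 of C2D over S2D. Thinned, however, C6W over S6W was 3.902 (1.117 to 20.9) of kept barcodes, against 2.036 with all UMIs, and 3.103 of MHC class II barcodes, against 1.676. The interval of the kept ratio excludes 1 when thinned and with RNA of other cells limited (2.687, 1.057 to 8.10). The causes were not tested except where fewer cells, UMIs or genes entered by construction.

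Thinned to 3000 UMIs, the C2D over S2D ratios of shares were 2.007 of kept and 0.4341 of MHC class II barcodes. All limits of the rule and of the MHC class II class, upper ones included, were read on the thinned counts. The thinned dividing shares were 9.677% in C2D, 17.86% in S2D and 24% in C6W, and the mature shares 8.871% in C2D, 10.71% in S2D and 22.22% in S6W.

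Medians and gene values here are log2 ratios. For C2D over S2D, genes at least 2-fold higher numbered 63 with 3 or more UMIs of the rule's 3 genes, 70 in cells with Xcr1 or Clec9a, 19 thinned, 1030 with no minimum and 11 with a minimum of 400 UMIs. Lower genes numbered 17 with RNA of other cells limited, 14 without each gene's top cell, 2 thinned, 3448 with no minimum and 3 with a minimum of 400. With 3 or more UMIs of the rule's genes, the medians were 0.58 for lysosomal and -0.0389 for maturation genes, and Fabp5 (-0.49), Fscn1 (-0.0754), Il1rn (-0.44) and Trem2 (-0.25) changed sign. The MHC class II median was 0.25 with other RNA limited, 0.27 without mature cells and 0.26 thinned. The median of early and stress genes was -0.30 without dividing cells and 0.11 without mature cells, and that of S100 and cytoskeleton genes 0.0892 thinned. Without dividing cells Aurka (-0.60), Col1a1 (-0.0647) and Col1a2 (-0.18) changed sign, and without mature cells Ccr7 (-2.26), Col1a1 (-0.26) and Fscn1 (-3.43). In cells with Xcr1 or Clec9a Ccl5 (-0.0335) and Ccr1 (-1.62) did, and thinned Aurka (-3.56), Ccr1 (-0.56), Fscn1 (-1.56), Irf4 (-0.39), Vegfa (-0.39) and Xaf1 (-1.56). Ccr7 and Fscn1 are among the genes that define mature cells, so their values without these cells were largely set by that choice.

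For C6W over S2D, higher and lower genes numbered 4 and 17 without mature cells, 0 and 2 thinned, 1533 and 1721 with no minimum, 2 and 0 with a minimum of 400, and 4 and 4 without each gene's top cell. Without mature cells the medians were -0.18 for MHC class II and -0.35 for NF-kB genes, and S100a4 was at -0.95. With a minimum of 400 the cytokine receptor median was -0.69. Without dividing cells Cdk1 (-1.38) and Pclaf (-0.79) changed sign, in cells with Xcr1 or Clec9a Ccl5 (-0.61), and thinned Apoe, Irgm1 and Zbp1 (0.0695 each). Cdk1 is among the genes that define dividing cells, so its value without them was largely set by that choice.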

Other observations

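Other gene lists were read beside the 9.37% of all genes that were higher and 3.02% lower. In C2D over S2D, 2 of 15 chemokine receptor and adhesion genes were higher (Ccr7 and Ccr1), 1 of 15 NF-kB genes (Tnf), 2 of 17 glycolysis and hypoxia genes (Hk2 and Vegfa) and 1 of 22 S100 and cytoskeleton genes (Fscn1), and 0 were lower in any of these lists. Hk2, which commits glucose to glycolysis, was at 58.3 CPM in C2D, against 17.0 in S2D, 57.1 in C6W and 83.95 in S6W, so S2D was the low library.

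Among the genes at least 2-fold higher in C2D under all 5 choices of cells, 67 had a gene name. By plain CPM in C2D, 24 of these stood highest in macrophages, 19 in fibroblasts, 11 in cDC2, 8 in B cells and 5 in cDC1. The same split over all genes was not computed, so these counts have no background beside them. The 5 highest in cDC1 were Mfsd6, B3gnt5, Map3k14, Ccdc28b and Borcs8, singled out after their values were seen. Map3k14, the kinase NIK of non-canonical NF-kB signalling, was at 165.3 CPM in C2D, against 71.5 in S2D, 90.4 in C6W and 116.6 in S6W (log2 ratio of C2D over S2D 1.21). On plain CPM it stood at 159.3 in cDC1, 125.5 in cDC2 and 24.0 in macrophages of C2D, so the margin over cDC2 was small.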
